A study of Mus musculus with 12 samples.

Results

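The integrated stress response and the genes that supply cells with amino acids were followed here as a set of 43 genes in cultured mouse osteoblasts. The genes were taken by name, from a list drawn up with earlier results of these data known, and all 43 were found among the 25511 genes of the deposited table. They comprise 9 transcription factors and regulators, 3 sulfur amino acid enzymes, 7 enzymes of serine, glycine and folate metabolism, 4 enzymes of asparagine, proline and phosphoenolpyruvate synthesis, 9 amino acid carriers, 7 aminoacyl-tRNA synthetases, and 3 secreted factors with a lipoprotein receptor. All 43 passed the filter on low counts that left 13603 genes for testing.

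In the integrated stress response, kinases that sense amino acid shortage, misfolded proteins in the endoplasmic reticulum, viral RNA or lack of haem phosphorylate the translation factor eIF2alpha. Translation in general slows, while the messenger RNA of the transcription factor ATF4 is translated more, and ATF4 with C/EBP partners switches on genes for amino acid synthesis, import and tRNA charging. Prolonged signalling also raises CHOP, the product of Ddit3, and GADD34, the product of Ppp1r15a, which brings a phosphatase to eIF2alpha. In osteoblasts ATF4 is known as a factor of late differentiation and of the amino acid uptake that collagen synthesis needs.

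Bulk RNA was sequenced from calvarial osteoblasts of neonatal mice, the bone-forming cells of the skull vault, which had been precultured for 48 h. The cells then spent 4 days in a prostate-cell medium (BRFF-HPC1) with 20% serum. The medium either carried secretions collected over 48 h from MDA-PCa-2b, a human prostate cancer line (conditioned), or did not (unconditioned). The mice were C57Bl/6J, labelled either knockout (KO) for F2rl1, which encodes protease-activated receptor 2, or wild type (WT). There were 3 conditioned libraries labelled KO, 3 conditioned libraries labelled WT, 3 unconditioned libraries labelled KO and 2 distinct unconditioned libraries labelled WT. The last group holds 3 deposited libraries, of which libraries 0 and 1 differed by less than the sampling noise and were counted as 1 sample. Of the samples in that group, 1 titled WT carries an F2rl1 -/- genotype label and was kept by its title. Which library it is could not be told, so the WT medium effect, its average with and difference from the KO one, and KO minus WT in unconditioned medium all rest in part on a sample of disputed genotype. Nothing in the labels says that samples of a group came from separate animals or cultures, so p-values measure only the spread between these samples.

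Libraries held 15023994 to 16956754 fragments, and the 43 genes took 0.419% to 1.14% of them. Levels are given in CPM, fragment counts brought to 1 common library size. F2rl1 itself had 1.93, 0.791 and 0.647 CPM in the conditioned libraries labelled KO, against 0.901, 1.55 and 0.927 CPM in those labelled WT. Its unconditioned levels were 2.23, 2.33 and 3.1 CPM in libraries labelled KO, against 1.64 and 1.4 CPM in those labelled WT. F2rl1 thus overlapped between the labels in conditioned medium and was higher, not lower, in every KO-labelled library of unconditioned medium. Its counts therefore do not bear out the KO label. The sources used here do not say which part of the gene the allele removes, so KO and WT stand below for labels only. Of the osteoblast markers, Col1a1 had 6650 to 22100 CPM and Runx2 70.1 to 96.5 CPM in all libraries, whereas Bglap and Ibsp, genes of mature osteoblasts, stayed below 1 CPM and Bglap was at 0 in 4 libraries. In bulk RNA, fewer cells of a type and less RNA per cell cannot be told apart.

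The DNA element that ATF4 and C/EBP partners bind is known as the C/EBP-ATF response element, and 8 of its letters, TGATGNAA, were searched on both strands of RefSeq promoter windows (GRCm38.p6, 250 bases before to 50 after each start). Of the 43 genes, 36 had a window, and 12 of these 36 (33.3%) held the letters, against 1219 of 27025 genes (4.51%) in the whole table. The set was chosen by name and holds known ATF4 targets, so the choice itself can give a higher share. A match describes letters and is not a measured binding site. The windows below are shown because 3 of them belong to genes that responded to the medium in a test below (Slc7a11, Pycr1 and Pck2) and 3 to textbook ATF4 targets that did not pass and differed widely between libraries of a group (Asns, Chac1 and Fgf21). Each is written on the strand of its gene with the matching letters in capitals, and TTNCATCA is the same element read from the opposite strand.

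Slc7a11, chr3:50443623-50443709, minus strand: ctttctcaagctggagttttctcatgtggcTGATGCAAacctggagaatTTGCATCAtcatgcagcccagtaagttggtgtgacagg
Pycr1, chr11:120643814-120643881, minus strand: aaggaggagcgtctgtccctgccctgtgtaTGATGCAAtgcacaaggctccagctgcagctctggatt
Pck2, chr14:55540133-55540200, plus strand: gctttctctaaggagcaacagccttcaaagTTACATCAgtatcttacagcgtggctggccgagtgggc
Asns, chr6:7693210-7693262, minus strand: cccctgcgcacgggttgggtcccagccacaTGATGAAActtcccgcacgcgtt
Chac1, chr2:119351019-119351086, plus strand: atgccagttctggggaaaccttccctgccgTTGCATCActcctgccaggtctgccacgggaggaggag
Fgf21, chr7:45615592-45615659, minus strand: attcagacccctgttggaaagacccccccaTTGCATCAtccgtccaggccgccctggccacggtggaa

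Slc7a11 was the 1 gene of these 6 with the letters in both orientations, starting 66 and 47 bases before its transcription start. The match starts 103 bases before the start in Pycr1 and in Pck2, and 23 bases before it in Asns. The other genes with the letters were Aars, Gars, Nupr1, Slc1a4, Trib3 and Vldlr, with the match after the start in Slc1a4 and Trib3. Among the 10 genes that passed in a medium comparison below, Slc7a11, Pycr1 and Pck2 held the letters, and Ddit3, Ppp1r15a, Gdf15, Mthfd1l, Atf5, Ddit4 and Sars had no match in the windows searched.

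Per gene length, on the authors' FPKM scale (fragments divided by gene length and library depth), the most abundant of the 43 were Atf4 (mean of the 4 group means 241 FPKM), its relative Atf5 (209 FPKM) and Ddit3 (185 FPKM). The glycyl-tRNA synthetase Gars followed at 153 FPKM. The place of Ddit3 rests on conditioned medium, where it had 76.1 to 803 FPKM. In unconditioned libraries it had 39.8 to 79.9 FPKM, against 149 to 189 FPKM for Gars. At the low end stood the cystine carrier Slc7a11 (2.48 FPKM) and the transsulfuration enzyme Cbs (0.595 FPKM). The genes also differed in how far they varied over the 11 libraries. Slc38a2, a carrier of small neutral amino acids, and Nars, the asparaginyl-tRNA synthetase, had highest-to-lowest ratios of 1.42 and 1.46 in CPM. The corresponding ratio was 20.1 for Ddit3, 21.4 for Trib3, a pseudokinase that dampens ATF4 signalling, and 23.4 for the arginine and lysine carrier Slc7a3. Fgf21, a secreted hormone of starvation, ranged from 0.132 to 15 CPM.

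**Figure D1:**
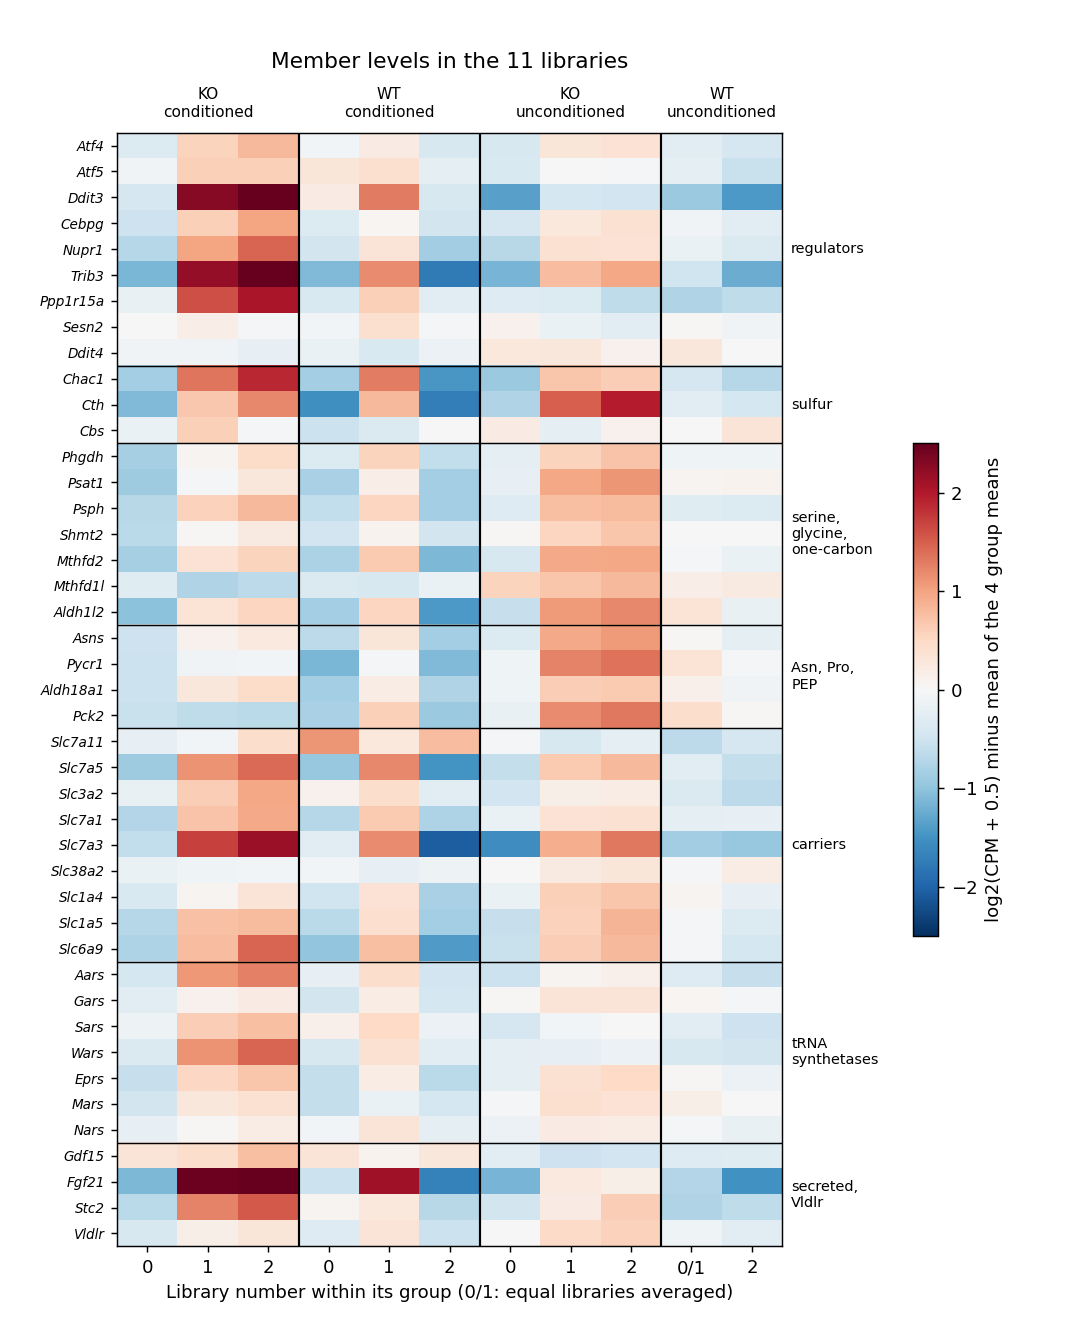
Level of each of the 43 genes (rows, by role) in each of the 11 libraries (columns, by labelled genotype and medium) as log2(CPM + 0.5) minus the mean of the 4 group means; colours saturate at the ends of the scale. In most rows KO-labelled libraries 0 are blue in both media, KO-labelled libraries 1 and 2 are red, and library 1 of conditioned WT is red between 2 paler or blue libraries.

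Libraries of the same group differed widely over the set. The median of the 43 genes, each centred on the mean of its group means, was -0.52, 0.56 and 0.69 (log2) in conditioned KO-labelled libraries 0, 1 and 2. It was -0.45, 0.38 and -0.61 in conditioned WT-labelled libraries 0, 1 and 2. In unconditioned medium it was -0.32, 0.39 and 0.50 in the KO-labelled libraries, and -0.10 and -0.28 in the WT-labelled ones. Library 0 was thus the low library of the KO label in both media, and library 1 the high library of conditioned WT.

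Of the 43 genes, 39 (90.7%) had their lowest conditioned KO-labelled level in library 0, against 45.2% of all genes tested. The same library number was lowest for 37 of 43 genes (86%) among the unconditioned KO-labelled libraries, against 45.8% of all genes. Library 1 of conditioned WT was the highest of its group for 37 of 43 genes (86%), against 39% of all genes. These 3 libraries were singled out after their values were seen.

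Over all genes, the first principal component (49% of the variance) set conditioned KO-labelled libraries 1 and 2, at 57.5 and 70.8, apart from library 0, at -3.63. It did not do so for unconditioned KO-labelled libraries 0, 1 and 2 (-32.7, -32.6 and -28.6), which the second component (26.5%) placed at -12.8, 36.4 and 44.5. Conditioned WT libraries 0, 1 and 2 scored 15.1, 22.9 and -7.51 on the first and -36.9, -5.19 and -34.3 on the second. Summed skeletal muscle markers (7 genes) were 167 CPM in conditioned WT library 1 and 217 CPM in unconditioned WT library 0, against 22.6 to 73.8 CPM in the other 9 libraries. Of those 7 markers, Ckm was at 0 in conditioned KO library 1. Their part in the results was not tested.

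Atf4, the central factor, had 290, 545 and 653 CPM in conditioned and 278, 458 and 480 CPM in unconditioned KO-labelled libraries. In WT-labelled libraries it had 354, 425 and 282 CPM in conditioned and 309 and 276 CPM in unconditioned medium. The media overlapped in both genotypes, and the log2 difference of conditioned minus unconditioned medium was 0.29 ± 0.30 (SE) under the KO label and 0.27 ± 0.34 under the WT label. Neither passed the test, with adjusted p of 0.511 and 0.794 (edgeR quasi-likelihood test, Benjamini-Hochberg over all genes). ATF4 is controlled largely at translation, which these libraries do not measure.

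In conditioned medium some genes of the set were higher and others lower. Averaged over the genotypes, 6 of the 43 genes were higher in conditioned medium (Ddit3, Ppp1r15a, Slc7a11, Gdf15, Sars and Atf5) and 3 were lower (Mthfd1l, Pycr1 and Ddit4) at an adjusted p under 0.05. These 9 make up 20.9% of the set, close to the 20.5% of all 13603 genes that passed (10.4% higher and 10.1% lower). The median log2 difference of the 43 genes was 0.03, against 0.02 over all genes. By genotype, 5 of 43 (11.6%) passed under the KO label, against 18.3% of all genes (9.68% higher and 8.58% lower), and 1 of 43 (2.33%) under the WT label, against 1.78% of all genes (1.23% higher and 0.551% lower). In each genotype 24 of the 43 differences were positive, against 51.6% of all genes under the KO label and 52% under the WT label. Under the KO label 3 of the 43 genes were higher and 4 lower in every conditioned library than in every unconditioned one, against 15.8% and 15.4% of all genes. Under the WT label it was 7 higher and 5 lower, against 21.8% and 20.6% of all genes.

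Deviations of same-numbered KO-labelled libraries correlated across the media at 0.36, 0.27 and 0.33. Conditioned library 1 correlated no less with unconditioned library 2 (0.32), so the numbers are not shown to mark pairs. With library number as a block within the KO label, a setting added after seeing the data, 9 of the 43 genes passed there in place of 5 (3478 genes in all). On average over genotypes it was 14 in place of 9 (3654 genes in all), and none of the 43 passed under the WT label. Without both KO-labelled libraries 0 the counts were 13 of 43 under the KO label, 4 under the WT label and 18 on average, against 50.4%, 11.7% and 48.6% of all genes.

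**Figure D2:**
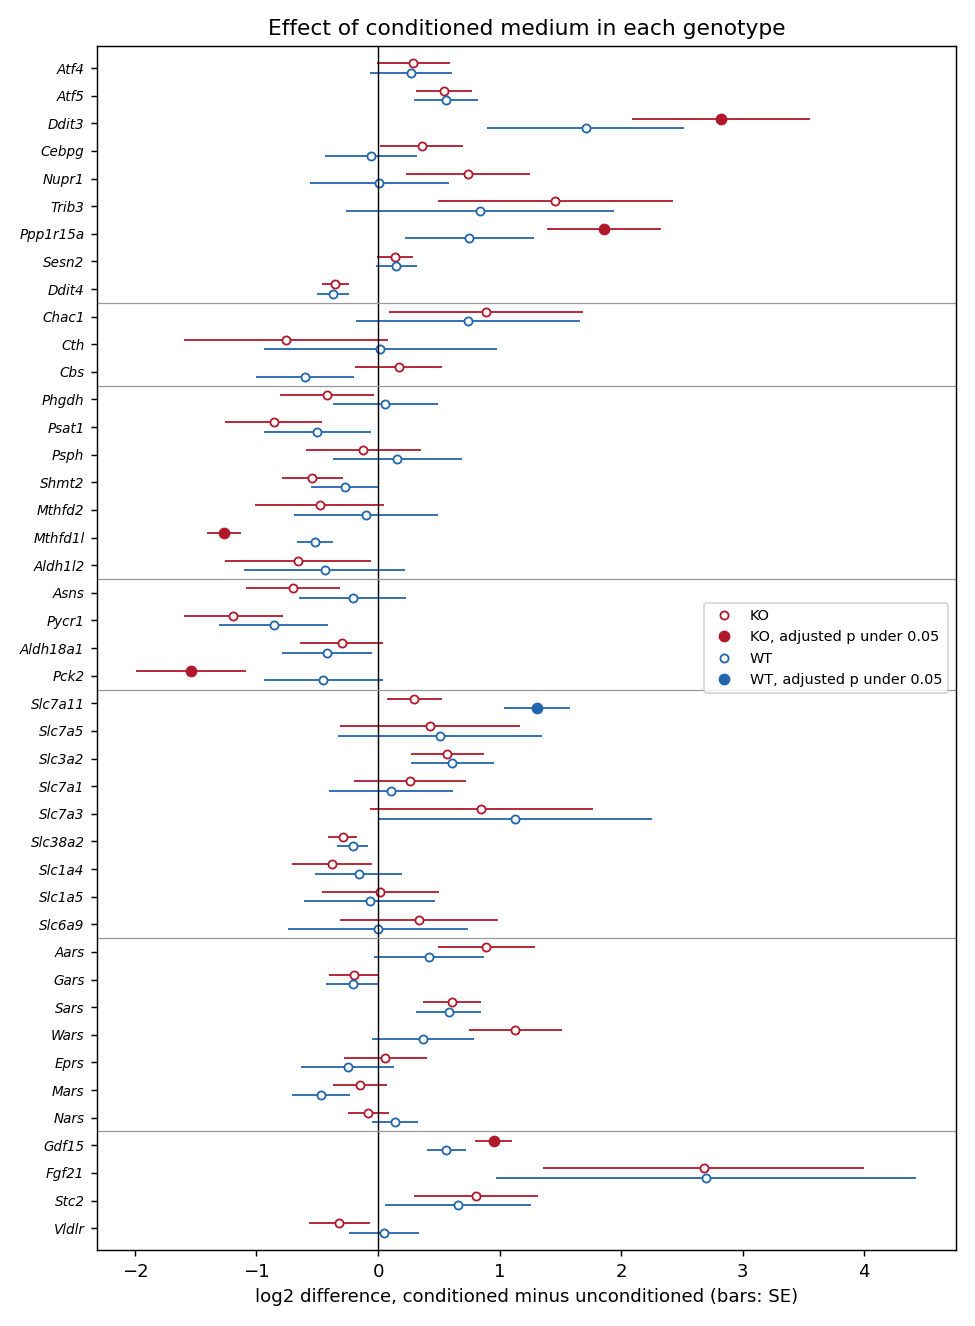
Log2 difference of conditioned minus unconditioned medium with its standard error for each of the 43 genes, for libraries labelled KO (red) and WT (blue); filled points have an adjusted p under 0.05. Ddit3, Ppp1r15a and Gdf15 lie right of 0 and Mthfd1l and Pck2 left of 0 as filled KO points, and Slc7a11 is the filled WT point.

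Among the 9 regulators the medium effect was positive for 8 under the KO label (median log2 difference 0.54) and for 7 under the WT label (median 0.27). Ddit3 (chr10:127290793-127311786 in the authors' table, GRCm38) had 66.1, 430 and 653 CPM in conditioned and 34.4, 65.6 and 63.3 CPM in unconditioned KO-labelled libraries. The WT label gave 102, 219 and 67.2 CPM in conditioned and 46.3 and 32.5 CPM in unconditioned medium. The media did not overlap in either genotype, although conditioned KO library 0 lay only just above the unconditioned ones. The log2 difference was 2.82 ± 0.73 under the KO label (adjusted p = 0.0289), 1.71 ± 0.81 under the WT label (adjusted p = 0.364) and 2.26 ± 0.55 on average (adjusted p = 0.0184). The KO call was lost when conditioned library 1 or 2 or any unconditioned library of the KO label was left out (adjusted p up to 0.0999). The authors' table gives Ddit3 and its neighbour Mars 1 shared locus, and their exons overlap by 68 bases on opposite strands in the annotation, so a few unstranded fragments could belong to either gene.

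Ppp1r15a had 87.4, 304 and 414 CPM in conditioned and 79.7, 77.8 and 63.7 CPM in unconditioned KO-labelled libraries. Its WT-labelled levels were 76.3, 151 and 81.7 CPM in conditioned and 58.7 and 64 CPM in unconditioned medium. As with Ddit3, the same libraries stood highest, and the media did not overlap in either genotype. Ppp1r15a rose by 1.86 ± 0.47 on the log2 scale under the KO label (adjusted p = 0.0276), a call lost without KO-labelled library 1 or 2 of either medium (adjusted p up to 0.104). The difference was 0.75 ± 0.53 under the WT label (adjusted p = 0.58), and on average it was 1.31 ± 0.36 (adjusted p = 0.029), a call lost in 7 of 11 such fits (adjusted p up to 0.115).

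Atf5 had 357, 571 and 574 CPM in conditioned and 289, 381 and 365 CPM in unconditioned KO-labelled libraries, which overlapped. WT-labelled libraries had 465, 499 and 321 CPM in conditioned and 323 and 258 CPM in unconditioned medium, which overlapped as well. Only the average over genotypes passed for this factor, at a log2 difference of 0.55 ± 0.17 (adjusted p = 0.0494). That call was lost in 9 of 11 fits that left out 1 library, all but those without conditioned KO library 0 or conditioned WT library 2 (adjusted p up to 0.185). Its exons overlap those of Nup62 and Il4i1 by 82 bases.

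Trib3 spread widely within groups. It had 37.2, 381 and 512 CPM in conditioned and 36.4, 141 and 162 CPM in unconditioned KO-labelled libraries. In WT-labelled libraries it had 38, 188 and 24 CPM in conditioned and 58.7 and 34.6 CPM in unconditioned medium. The log2 difference of 1.46 ± 0.97 under the KO label had an adjusted p of 0.298, and that under the WT label, 0.84 ± 1.10, turned to -0.59 without conditioned WT library 1.

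Ddit4, which encodes an inhibitor of the growth kinase mTORC1, was the regulator that went the other way. It had 181, 181 and 168 CPM in conditioned and 232, 235 and 206 CPM in unconditioned KO-labelled libraries. Conditioned WT-labelled libraries had 171, 148 and 173 CPM and unconditioned ones 234 and 191 CPM. Every conditioned library lay below every unconditioned library of its genotype. Ddit4 fell by 0.36 ± 0.09 on the log2 scale on average over the genotypes (adjusted p = 0.0167). Under the KO label alone the adjusted p was 0.0601, and 0.0498 with the library block.

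The remaining regulators were the C/EBP partner Cebpg, the stress protein gene Nupr1 and Sesn2, an inhibitor of mTORC1. None passed in either genotype, and their log2 differences under the KO label were 0.36 ± 0.34, 0.74 ± 0.51 and 0.14 ± 0.15.

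**Figure D3:**
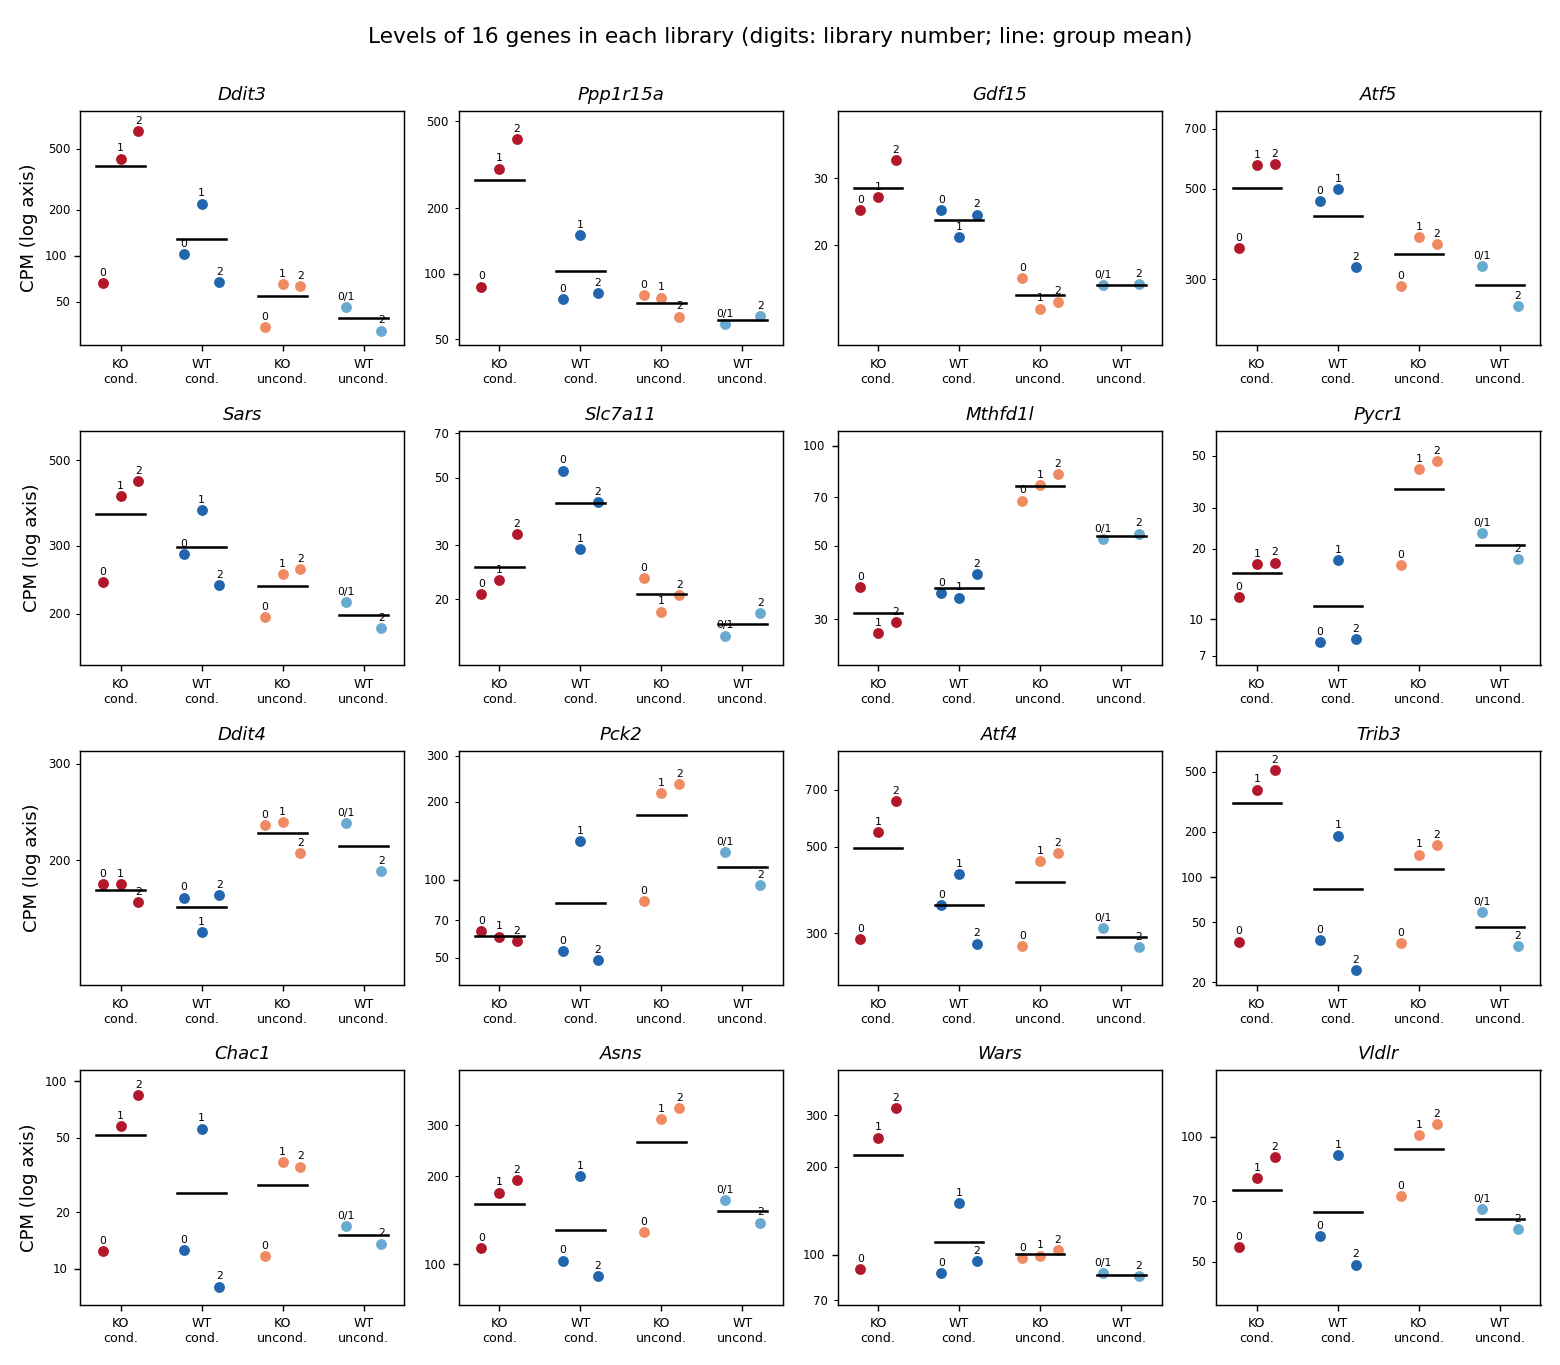
CPM on a log axis of 16 genes in each library, by labelled genotype and medium, with library numbers beside the points and a line at each group mean. Gdf15 and Mthfd1l separate the media in every library, whereas Trib3, Chac1 and Asns follow the library within a group.

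Among the enzymes of serine, glycine and folate metabolism, all 7 had a negative medium effect under the KO label (median log2 difference -0.54), and 5 of 7 under the WT label (median -0.27). Mthfd1l (chr10:3973075-4167081), a mitochondrial enzyme that makes formate, had 37.5, 27.2 and 29.3 CPM in conditioned and 68.3, 76 and 82.3 CPM in unconditioned KO-labelled libraries. Under the WT label it had 36, 34.8 and 41.1 CPM in conditioned and 52.4 and 54.3 CPM in unconditioned medium. The media were fully separated in both genotypes, and libraries of a group lay close together. Mthfd1l fell by 1.27 ± 0.14 on the log2 scale under the KO label (adjusted p = 0.00393) and by 0.89 ± 0.10 on average (adjusted p = 0.000817). Under the WT label the difference was -0.52 ± 0.15 (adjusted p = 0.119).

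The other 6 enzymes of that group did not pass in these tests. Their log2 differences under the KO label ran from -0.86 ± 0.40 for Psat1, which makes phosphoserine, to -0.12 ± 0.47 for Psph, which releases serine from it. With the library block within the KO label, Psat1 (-0.84 ± 0.26, adjusted p = 0.0471) and Shmt2, which turns serine into glycine in mitochondria (-0.56 ± 0.15, adjusted p = 0.0348), passed as well.

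All 4 enzymes of asparagine, proline and phosphoenolpyruvate synthesis had negative medium effects in both genotypes (median log2 difference -0.95 under the KO label and -0.44 under the WT label). Pycr1, the mitochondrial reductase that completes proline, had 12.5, 17.2 and 17.5 CPM in conditioned and 17, 43.8 and 47.3 CPM in unconditioned KO-labelled libraries. WT-labelled libraries had 7.98, 17.9 and 8.27 CPM in conditioned and 23.3 and 18.1 CPM in unconditioned medium. The KO-labelled media overlapped by a small margin at library 0 and the WT-labelled ones did not. Pycr1 fell by 1.03 ± 0.30 on the log2 scale on average (adjusted p = 0.038), a call lost in 8 of 11 fits that left out 1 library (adjusted p up to 0.134), and under the KO label alone the difference of -1.19 ± 0.41 had an adjusted p of 0.0649, or 0.0478 with the library block.

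Pck2, the mitochondrial enzyme that makes phosphoenolpyruvate, had 63.6, 60.4 and 58.2 CPM in conditioned and 82.6, 215 and 233 CPM in unconditioned KO-labelled libraries. Its WT-labelled levels were 53.2, 141 and 49.2 CPM in conditioned and 128 and 95.2 CPM in unconditioned medium. The KO-labelled media were separate, with the conditioned libraries close together, and conditioned WT library 1 overlapped the unconditioned ones. Pck2 fell by 1.54 ± 0.45 on the log2 scale under the KO label (adjusted p = 0.0431), a call lost with the library block (-1.42 ± 0.47, adjusted p = 0.0591) and in 7 of 11 fits that left out 1 library, among them KO-labelled libraries 1 and 2 of either medium (adjusted p up to 0.138). For the WT label the difference was -0.45 ± 0.49 (adjusted p = 0.754).

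Asns, which makes asparagine and is a standard ATF4 target, had 114, 176 and 194 CPM in conditioned and 129, 315 and 342 CPM in unconditioned KO-labelled libraries. In WT-labelled libraries it had 103, 201 and 90.9 CPM in conditioned and 166 and 139 CPM in unconditioned medium. The log2 difference was -0.70 ± 0.39 under the KO label (adjusted p = 0.226) and -0.21 ± 0.44 under the WT label (adjusted p = 0.893). Its values overlapped between the media in both genotypes, and it did not go up with Ddit3. The 4th enzyme, Aldh18a1, which starts proline synthesis, had -0.30 ± 0.34 and -0.42 ± 0.37.

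None of the 3 sulfur amino acid enzymes passed. Chac1, a glutathione-degrading enzyme downstream of ATF4 and CHOP, had 12.4, 57.9 and 84.8 CPM in conditioned and 11.7, 37 and 35 CPM in unconditioned KO-labelled libraries. Under the WT label it had 12.5, 55.9 and 8.01 CPM in conditioned and 16.8 and 13.6 CPM in unconditioned medium. Library 0 was low under the KO label in both media, and library 1 alone was high in conditioned WT. The WT difference of 0.74 ± 0.92 turned to -0.57 without that library. Cth, which releases cysteine, ranged over all libraries from 5.16 to 73.2 CPM, and Cbs from 0.901 to 2.56 CPM.

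Of the 9 amino acid carriers, Slc7a11 (chr3:50364936-50443613), the cystine-glutamate exchanger, passed. It had 20.8, 23.1 and 32.7 CPM in conditioned and 23.5, 18.2 and 20.6 CPM in unconditioned KO-labelled libraries, which overlapped. WT-labelled libraries had 52.8, 29.2 and 41.7 CPM in conditioned and 15.2 and 18 CPM in unconditioned medium, which were fully separate. Unlike most of the set, Slc7a11 was lowest, not highest, in library 1 of conditioned WT.

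Slc7a11 rose by 1.31 ± 0.27 on the log2 scale under the WT label (adjusted p = 0.046), a 2.48-fold difference, and the difference was 0.30 ± 0.23 under the KO label (adjusted p = 0.377). With the library block the WT value was 1.31 ± 0.27 at an adjusted p of 0.0504, so this call lies at the threshold. It was lost in 7 of 11 fits that left out 1 library, including either unconditioned WT library (adjusted p up to 0.33). The average over genotypes was 0.81 ± 0.18 (adjusted p = 0.0128). Its partner chain Slc3a2 had 273, 481 and 612 CPM in conditioned and 223, 346 and 353 CPM in unconditioned KO-labelled libraries, and 335, 420 and 257 CPM in conditioned and 243 and 199 CPM in unconditioned WT-labelled libraries. The Slc3a2 differences of 0.57 ± 0.30 under the KO label and 0.61 ± 0.34 under the WT label did not pass, but with the library block the average did (0.57 ± 0.14, adjusted p = 0.0239).

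The leucine carrier Slc7a5, the cationic carriers Slc7a1 and Slc7a3, the neutral carriers Slc1a4 and Slc1a5 and the glycine carrier Slc6a9 followed the library pattern. Their log2 medium effects under the KO label lay between -0.38 ± 0.33 (Slc1a4) and 0.85 ± 0.92 (Slc7a3), and none passed. Slc38a2 was lower in every conditioned library than in every unconditioned library of its genotype, with a log2 difference of -0.29 ± 0.12 under the KO label (adjusted p = 0.107). With the library block its average over genotypes passed (-0.24 ± 0.08, adjusted p = 0.0455).

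Of the 7 aminoacyl-tRNA synthetases, Sars, which charges serine tRNA, passed on average over the genotypes. It had 242, 403 and 441 CPM in conditioned and 196, 253 and 261 CPM in unconditioned KO-labelled libraries, and 286, 371 and 237 CPM in conditioned and 214 and 184 CPM in unconditioned WT-labelled libraries. The average log2 difference was 0.60 ± 0.18 (adjusted p = 0.0432), with 0.61 ± 0.24 under the KO label and 0.58 ± 0.27 under the WT label. The call was lost in 9 of 11 fits that left out 1 library, all but those without conditioned KO library 0 or conditioned WT library 2 (adjusted p up to 0.159). With the library block Sars passed under the KO label as well (0.58 ± 0.18, adjusted p = 0.0454). Wars, which charges tryptophan tRNA and is also induced by interferon-gamma, had 89.6, 252 and 317 CPM in conditioned and 97.7, 99.4 and 104 CPM in unconditioned KO-labelled libraries. In WT-labelled libraries Wars had 86.6, 150 and 95 CPM in conditioned and 86.5 and 84.3 CPM in unconditioned medium. Its log2 difference of 1.13 ± 0.38 under the KO label had an adjusted p of 0.0632. KO-labelled libraries 1 and 2 carried that difference, since library 0 lay below the unconditioned libraries.

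The synthetases Gars, Mars and Nars had small negative differences under the KO label (-0.20 ± 0.20, -0.15 ± 0.22 and -0.08 ± 0.17), and Aars, for alanine, had 0.89 ± 0.40 (adjusted p = 0.135). With the library block Mars passed on average over the genotypes (-0.32 ± 0.10, adjusted p = 0.0432).

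Gdf15 (chr8:70629394-70631635), a stress cytokine of the TGF-beta family, was the only gene of the 4 in its role to pass. It had 24.7, 26.8 and 33.5 CPM in conditioned and 16.4, 13.6 and 14.2 CPM in unconditioned KO-labelled libraries. Its WT-labelled levels were 24.8, 21 and 24.1 CPM in conditioned and 15.7 and 15.8 CPM in unconditioned medium. Every conditioned library, library 0 included, lay above every unconditioned one. Gdf15 rose by 0.95 ± 0.15 on the log2 scale under the KO label (adjusted p = 0.00669) and by 0.75 ± 0.11 on average (adjusted p = 0.00196). Under the WT label the difference was 0.56 ± 0.16 (adjusted p = 0.119).

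Fgf21 had 0.436, 10.6 and 15 CPM in conditioned and 0.406, 1.9 and 1.75 CPM in unconditioned KO-labelled libraries. Its WT-labelled levels were 0.901, 8.3 and 0.132 CPM in conditioned and 0.723 and 0.21 CPM in unconditioned medium. The hormone gene was thus high in 3 conditioned libraries and near the unconditioned level in the other 3, and its log2 difference of 2.68 ± 1.32 under the KO label did not pass (adjusted p = 0.168). Stc2, a secreted glycoprotein gene, had 0.81 ± 0.51. Vldlr, a lipoprotein receptor gene, had 54.3, 79.5 and 89.4 CPM in conditioned and 71.8, 101 and 107 CPM in unconditioned KO-labelled libraries. In WT-labelled libraries Vldlr had 57.7, 90.1 and 49.2 CPM in conditioned and 66.8 and 59.8 CPM in unconditioned medium, and it passed in no comparison.

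The difference between the genotypes' medium effects passed for none of the 43 genes and for none of the 13603 genes (0% called, with 2 of 43 and 412 of 13603, or 3.03%, at an unadjusted p under 0.05). The smallest unadjusted p-values in the set belonged to Mthfd1l, whose log2 medium effect was lower by 0.75 ± 0.21 under the KO label than under the WT label (unadjusted p = 0.00442, adjusted p = 0.819), and Slc7a11 (-1.01 ± 0.36, unadjusted p = 0.0172, adjusted p = 0.819). Passing in 1 genotype and not in the other is therefore not shown to be a difference between them. Without both KO-labelled libraries 0 this difference passed for Ppp1r15a (1.60 ± 0.45, adjusted p = 0.0483) and Mthfd1l (-0.96 ± 0.14, adjusted p = 0.00929), against 19.2% of all genes. Those libraries were singled out after their values were seen, so these adjusted p-values do not control the error rate.

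KO was then compared with WT within each medium. In conditioned medium no gene of the set passed, and none of all genes did (0% called). At an unadjusted p under 0.05 there were 5 of 43, against 13.9% of all genes. The log2 difference was positive for 38 of 43 genes, against 48.6% of all genes, with a median of 0.49 against -0.01. No gene of the set was separate between the labels, against 4.65% of all genes that were higher and 4.22% that were lower in every KO-labelled library.

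The largest positive differences in conditioned medium were 1.90 ± 0.98 for Trib3, 1.57 ± 0.69 for Ddit3, 1.49 ± 1.24 for Fgf21 and 1.38 ± 0.47 for Ppp1r15a, with adjusted p of 0.371, 0.357, 0.512 and 0.357. The largest negative difference was that of Slc7a11 (-0.69 ± 0.23, adjusted p = 0.357). For Slc7a11, conditioned KO-labelled libraries had 20.8, 23.1 and 32.7 CPM, against 52.8, 29.2 and 41.7 CPM in WT-labelled ones.

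A single library decided whether genes passed in that comparison. Without conditioned KO library 0, 11 of 43 genes passed, 10 of them higher and 1 lower. Over all genes 4507 passed in that fit, 2349 of them higher and 2158 lower. Without both KO-labelled libraries 0 it was 15 of 43 (34.9%), against 42.6% of all genes (21.4% higher and 21.1% lower). By direction, 14 of the 43 were higher and 1 was lower, and the difference from all genes was not tested. The higher ones included Atf4 (0.77 ± 0.16, adjusted p = 0.00612), Ddit3 (2.08 ± 0.46, adjusted p = 0.0112), Ppp1r15a (1.81 ± 0.30, adjusted p = 0.00352) and 5 of the 7 synthetases, and the lower one was Mthfd1l (-0.39 ± 0.10, adjusted p = 0.0128). The labels give no reason to leave these libraries out. They were singled out after the low levels of these genes in them were seen, so these adjusted p-values do not control the error rate. Library 1 of conditioned WT, the high one of its group, was kept.

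In unconditioned medium again none of the 43 passed, against 1 of 13603 genes (0.00735%), and 1 of 43 had an unadjusted p under 0.05, against 2.16% of all genes. Without both KO-labelled libraries 0 the 1 gene that passed was Mthfd1l, against 4.86% of all genes. The log2 difference of KO minus WT was positive for 40 of 43 genes, against 51.8% of all genes, with a median of 0.47 against 0.01. Here 7 of 43 genes (16.3%) lay higher in every KO-labelled library than in both WT-labelled ones, against 9.12% of all genes: Shmt2, Mthfd1l, Slc7a11, Slc7a1, Wars, Stc2 and Vldlr. None lay lower in every one, against 8.01% of all genes. The smallest unadjusted p was that of Mthfd1l, which had 68.3, 76 and 82.3 CPM in KO-labelled and 52.4 and 54.3 CPM in WT-labelled libraries (log2 difference 0.50 ± 0.15, unadjusted p = 0.00859, adjusted p = 0.998). The positive sign over the set rests on KO-labelled libraries 1 and 2, whose medians were 0.39 and 0.50, while library 0 at -0.32 lay below both WT-labelled libraries. As the 43 genes vary together across libraries, their shared sign is not 43 separate observations.

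**Figure D4:**
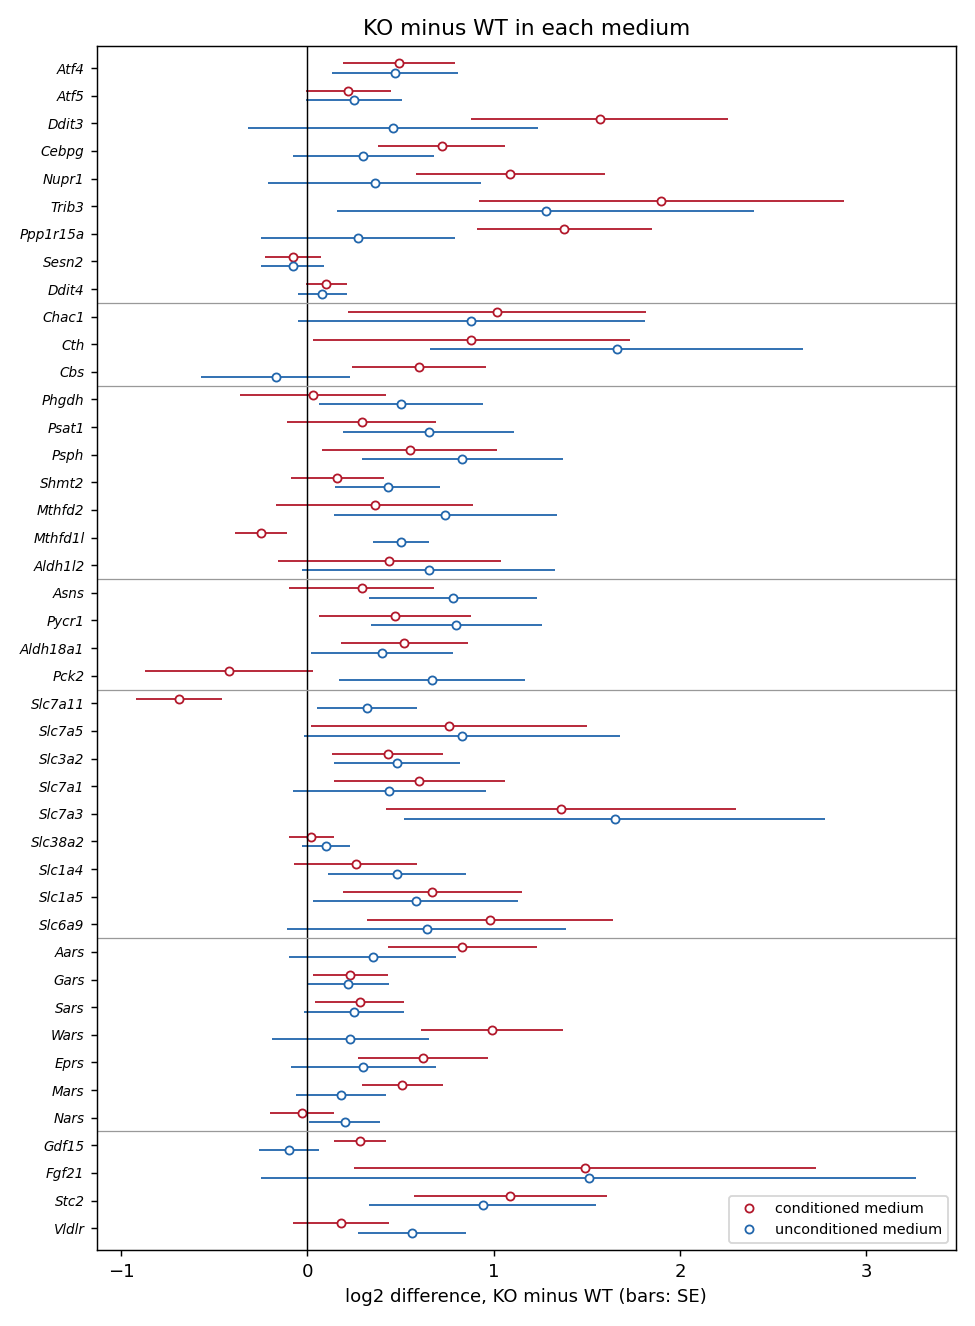
Log2 difference of KO-labelled minus WT-labelled libraries with its standard error for each of the 43 genes, in conditioned (red) and unconditioned (blue) medium; open points have an adjusted p of 0.05 or more, and all are open. Most points lie right of 0, with wide errors for Trib3, Fgf21, Slc7a3 and Ddit3, and Slc7a11 is the farthest left in conditioned medium.

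Other genes of the pathway were read beside the 43, and their counts stand against 18.3% of all genes called under the KO label (9.68% higher and 8.58% lower). Of 16 genes for eIF2alpha kinases, eIF2 and eIF2B subunits and phosphatase partners, 3 passed as higher and none as lower in conditioned medium, both under the KO label and on average (20.5% of all genes), a share near that of all genes. They were Impact, an inhibitor of the amino acid sensor GCN2 (1.24 ± 0.18 under the KO label, adjusted p = 0.00569), the RNA-sensing kinase gene Eif2ak2 (0.46 ± 0.14, adjusted p = 0.0455) and Eif2b2 (0.59 ± 0.15, adjusted p = 0.0257). The median of the list was 0.14 under the KO label. None of the 16 passed under the WT label.

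Of 20 further ATF4 and CHOP pathway genes, 3 were higher and 1 was lower under the KO label, with a median log2 difference of -0.03, again a share near that of all genes. Atf3, a stress-induced relative of ATF4, had 2.86, 81 and 183 CPM in conditioned and 1.62, 2.4 and 2.76 CPM in unconditioned KO-labelled libraries. In WT-labelled libraries Atf3 had 4.25, 8.1 and 3.24 CPM in conditioned and 1.45 and 1.89 CPM in unconditioned medium. It was thus high in the same conditioned KO-labelled libraries as Ddit3 and Ppp1r15a (log2 difference 5.29 ± 1.14, adjusted p = 0.0164). The autophagy genes Sqstm1 (1.31 ± 0.28, adjusted p = 0.0161) and Map1lc3b (0.64 ± 0.14, adjusted p = 0.0167) rose too, and Cebpd fell by 1.14 ± 0.26 (adjusted p = 0.0206).

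Of 16 ER chaperones and targets of the parallel IRE1 and ATF6 branches, none was higher and 3 were lower under the KO label, against 9.68% and 8.58% of all genes, with a median of -0.31. They were Pdia4 (-0.87 ± 0.18, adjusted p = 0.0146), Hsp90b1 (-0.79 ± 0.18, adjusted p = 0.0208) and Xbp1 (-0.73 ± 0.17, adjusted p = 0.0203). None of these 16 passed under the WT label.

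Amino acid carriers outside the set changed in both directions. Of 18 tested, 5 were higher and 4 were lower under the KO label, against 9.68% and 8.58% of all genes. Slc38a7, a lysosomal glutamine exporter, had 40.6, 68.2 and 78 CPM in conditioned and 21.4, 19.3 and 19.1 CPM in unconditioned KO-labelled libraries (1.64 ± 0.27, adjusted p = 0.00795). Slc38a4, a neutral amino acid carrier, had 20.6, 20.8 and 21.5 CPM in conditioned and 37.9, 44.6 and 56.7 CPM in unconditioned KO-labelled libraries (-1.15 ± 0.15, adjusted p = 0.0045). The carrier Slc7a6 fell too (-1.26 ± 0.15, adjusted p = 0.00425). Under the WT label none was higher and 2 were lower, against 1.23% and 0.551% of all genes. They were Slc38a4 (-1.38 ± 0.17, adjusted p = 0.00851) and Slc7a6 (-0.97 ± 0.16, adjusted p = 0.0253).

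Of 28 other amino acid and folate enzymes tested, 3 were higher and 4 were lower under the KO label, against 9.68% and 8.58% of all genes. The lower ones included Gldc of the glycine cleavage system (-2.21 ± 0.45, adjusted p = 0.013) and Oat, which links ornithine to proline (-0.85 ± 0.19, adjusted p = 0.0178). The higher ones included Got2 (0.54 ± 0.12, adjusted p = 0.0162) and Mat2a (1.93 ± 0.49, adjusted p = 0.0284). Under the WT label 1 of the 28 passed, against 1.78% of all genes, and it was Gldc (-2.34 ± 0.47, adjusted p = 0.0446). Of 13 other cytosolic synthetases none was higher and 2 were lower, a share near that of all genes, Dars (-0.55 ± 0.11, adjusted p = 0.0147) and Qars (-0.54 ± 0.15, adjusted p = 0.033). None of 17 mitochondrial synthetases passed under the KO label.

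Cell type markers were read on the average medium effect, for which 10.4% of all genes passed as higher and 10.1% as lower. Of the osteoblast genes tested, 7 of 7 had a negative effect (median -0.56) and 1 passed, Alpl, the alkaline phosphatase of mineralising cells (-1.43 ± 0.34, adjusted p = 0.0177). Their summed level was 18800 to 26000 CPM in conditioned and 28900 to 48000 CPM in unconditioned KO-labelled libraries, and 20300 to 32300 CPM in conditioned and 29900 to 33500 CPM in unconditioned WT-labelled ones. Bglap, too low to test, went the other way, with 0.129 to 0.791 CPM in conditioned and 0 to 0.197 CPM in unconditioned libraries. Of 8 macrophage genes, 6 had a positive and 2 a negative effect, and 1 passed (Fcer1g, 1.22 ± 0.30, adjusted p = 0.0199). Their sums were 45.1 to 129 CPM over all libraries, with none at 0. Of 3 endothelial genes tested, Kdr and Tek passed as higher, at sums of 3.88 to 15.2 CPM. Pecam1, too low to test, had 0.0622 to 0.377 CPM in conditioned and 0.135 to 0.473 CPM in unconditioned libraries. Keratinocyte markers summed to 1.19 to 25.6 CPM with Trp63 lower in conditioned medium (-1.30 ± 0.35, adjusted p = 0.0262), and Krt14 was at 0 in 4 libraries. The part of these cell types in the results was not tested.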

How the data were processed

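Rounded expected counts of 11 distinct RNA-seq libraries were compared between labelled genotypes and media. Per the file headers, the authors' Cuffdiff table holds estimated counts (raw fragments, 94.3% whole) and FPKM, which the authors scaled between libraries and divided by length. The deposited p-values and q-values of Cuffdiff were not used, and their table gave only symbols and positions. The submitters' processing notes name TopHat2 2.0.9, CASAVA 1.8.2 and Cuffdiff 2.1.1 and the build GRCm38. Of 25511 genes, 1714 have no symbol (2.69% to 3.1% of fragments) and were left out.

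The test was the robust quasi-likelihood F test of edgeR 4.0.16 (R 4.3.3), after filterByExpr and TMM, in 1 fit of the 4 groups with 7 residual degrees of freedom. Adjusted p-values (Benjamini-Hochberg over 13603 genes) under 0.05 passed. The width of the errors did not follow fragment number alone. Mthfd1l, with 447 to 1222 fragments, had narrower errors than Trib3, with 362 to 9490. The biological coefficient of variation was 0.238. The design had assumed 12 libraries. Libraries 0 and 1 of unconditioned WT shared a total of 16309121 fragments and 91.9% equal genes, and were averaged (chi-square 761 with 15476 degrees of freedom). The code of the test was checked on simulated data. Alternatives were DESeq2 1.42.0, DESeq2 size factors in edgeR, no filter, limma 3.58.1 on log2(FPKM + 1) and log2(FPKM + 0.1), the 2 compared groups alone, all 12 libraries, each library left out, and library number as a block. Library numbers of the table are not tied to the numbers in sample titles. Deviations of same-numbered KO-labelled libraries correlated across media at 0.36, 0.27 and 0.33, but conditioned library 1 and unconditioned library 2 at 0.32. Same-numbered libraries of other groups ran from -0.39 (conditioned WT and unconditioned KO, library 2) to 0.52 (conditioned KO and WT, library 1). The numbers are thus not shown to mark pairs. The block within the KO label was added after seeing the data, so its adjusted p-values do not control the error rate. 1 unconditioned sample titled WT carries a KO genotype label and was kept by its title.

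The 43 genes and all lists were chosen with earlier results of these data known. Values in every library are given for genes that passed in any comparison, the 3 with the smallest p in each, and Atf4, Ddit3, Asns, Trib3 and Chac1. Those of Slc3a2, Fgf21, Atf3, Slc38a4 and Slc38a7, and the values of other genes, were added after seeing the data. Promoter windows are RefSeq's for GRCm38.p6, and 7 of the 43 genes had none.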

Additional observations from a re-analysis of the deposited data

How the results depend on the processing

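Counts of genes passing, as all genes and as genes of the set, moved with the setting. With each library left out in turn, KO minus WT in conditioned medium ranged from 0 to 4507 (set 0 to 11), in unconditioned medium from 0 to 2 (set 0), the medium effect under the KO label from 319 to 6094 (set 2 to 15), under the WT label from 0 to 916 (set 0 to 3), on average from 1215 to 5652 (set 2 to 14), and the difference of the medium effects from 0 to 1419 (set 0 to 3). Without both KO-labelled libraries 0 these 6 counts were 5765 (set 15), 659 (set 1), 6822 (set 13), 1589 (set 4), 6590 (set 18) and 2605 (set 2). In the main fit, 2484 genes passed under the KO label (set 5), 242 under the WT label (set 1) and 2787 on average (set 9). The DESeq2 test gave 2 genes for KO minus WT in conditioned medium (set 0). For the medium effect it gave 3588 genes under the KO label (set 9), 897 under the WT label (set 2) and 3648 on average (set 14). With limma on log2(FPKM + 1) and log2(FPKM + 0.1), 2060 and 2104 genes passed under the KO label (set 2 in both). Under the WT label it was 231 and 222 (set 0 in both), and no gene passed for KO minus WT in unconditioned medium. With the equal libraries kept as 2, 3360 genes passed under the KO label (set 8) and 923 under the WT label (set 4). With only the 2 groups compared, 534 genes passed under the KO label (set 2), 363 under the WT label (set 0) and 0 for KO minus WT in unconditioned medium.

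With the replicate block over all groups, 0 genes passed for KO minus WT in unconditioned medium, and the WT medium effect turned to -0.23 for Trib3 and -0.09 for Chac1. The medium effect passed for 1821 genes under the KO label (set 4), 270 under the WT label (set 1) and 2350 on average (set 8). With the replicate block within the KO label, 0 genes passed for KO minus WT in unconditioned medium. The medium effect then passed for 3478 genes under the KO label (set 9), 340 under the WT label (set 0) and 3654 on average (set 14). The WT medium effect ranged from -0.59 to 1.27 for Trib3 and from -0.57 to 1.16 for Chac1 with single libraries left out, the low value without replicate 1 of conditioned WT in both. The cause was not tested.

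With each library left out in turn, 2 of the 5 calls under the KO label and 2 of the 9 on average (Mthfd1l and Gdf15 in both) were kept in every fit, and they were kept under the other settings too. The Slc7a11 call under the WT label had an adjusted p of 0.0239 to 0.33. Of the other calls on average, Slc7a11 and Ddit4 were lost without unconditioned WT replicate 0 (adjusted p up to 0.069 and 0.0962), Ddit3 without either unconditioned WT library (up to 0.0964), and Ppp1r15a in 7 of 11 fits (up to 0.115), Pycr1 in 8 (up to 0.134), Sars in 9 (up to 0.159) and Atf5 in 9 (up to 0.185). Over all settings of single genes, 1118 values stayed on their side of the threshold, 87 lost it, 35 gained it and 4 changed sign. The 1118 include genes that did not pass in the fit of all 11 libraries, so they do not measure how stable the calls were. Depth was similar in all libraries, and 3 libraries or fewer per group limit the comparisons.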
